A study of Homo sapiens with 20 samples.

Results

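Day 6 of differentiation (D6) was compared with day 4 (D4) in HUDEP-2 cells, an immortalized line of erythroid progenitors made from human umbilical cord blood. The members were chosen by the day in their labels, 2 libraries of each day, so 4 of the 20 libraries of the series. All 4 came from cells grown in the same differentiation medium, which was IMDM with holo-transferrin, human AB serum, heparin, insulin, EPO, SCF and doxycycline. SCF was taken out of the medium on day 6 and doxycycline on day 8, and whether the cells of D6 were harvested before or after the first change is not stated in the sources used here. No gene was targeted in either group. The study calls days 4 to 6 early and late basophilic, after the proerythroblasts of day 0 and before the polychromatic cells of day 8. Poly(A)-selected RNA was sequenced with a stranded kit, and read counts per RefSeq transcript were summed by gene symbol. The model is 1 cell line. The study calls its libraries of days 0 and 8 biological replicates. The sources used here do not say of D4 and D6 that the libraries of a day came from separate cultures. The spread between libraries that the p-values rest on may therefore be technical.

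Basophilic erythroblasts are dividing precursors that take their name from the blue stain of a cytoplasm packed with ribosomes. They build up hemoglobin and red cell membrane proteins while they lose progenitor features, and SCF and its receptor KIT support their expansion until EPO signalling alone carries them on. Amino acid supply and the rate of translation are watched in these cells by kinases that phosphorylate eIF2, among them the heme-regulated HRI. Phosphorylated eIF2 lowers translation as a whole but raises that of ATF4, a transcription factor that switches on genes of amino acid synthesis, uptake and tRNA charging. Sterol and fatty acid synthesis are switched on by the SREBP transcription factors when cell sterols run low.

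The 2 libraries of a day are called library A, from the deposited table that spans all days, and library B, from the table of days 0 to 6. The 4 libraries held 55079862 to 66857750 counts, so that 3 counts, the limit that a count of 0 allows, came to 0.0449 to 0.0545 CPM, which is counts scaled to a common library size. No molecular identifiers were used, so such limits cover only the error of counting. Globin genes took 2.92% and 3.07% of the counts on D4 and 3.36% and 4.39% on D6, and ribosomal RNA 0.767% to 1.49%. The 10 erythroid markers looked for (HBA1, HBB, ALAS2, GATA1, KLF1, TFRC, AHSP, SLC4A1, EPOR and CD36) were well expressed in every library, and the lowest value among them was 177 normalised CPM, that of EPOR in library B of D4. Of 20 mast cell and basophil genes 7 had no count in any of the 4 libraries, and the same was true of 9 of 19 megakaryocyte, 15 of 22 myeloid and 15 of 20 lymphoid genes. In bulk RNA, fewer cells of a type and less RNA per cell cannot be told apart.

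With both libraries of a day treated as independent and days 0 to 6 in one fit of 14 libraries, no gene of 15890 tested passed an adjusted p of 0.05 between D6 and D4 in edgeR's quasi-likelihood test. At an unadjusted p under 0.05 there were 213 genes higher on D6 (1.34% of the genes tested) and 288 lower (1.81%). DESeq2 on the same 14 libraries called 12 higher and 10 lower, edgeR's exact test on the 4 libraries 5 and 1, and limma on log2(TPM + 1) 1 and 0. Libraries of the same table deviated together on every day, and with the table as a block the fit of 14 libraries called 5 genes higher (0.0315%) and 4 lower (0.0252%). Those higher were ASS1, SYBU, APOL6, CEBPG and LRRN2, and those lower DOCK10, LCP1, LITAF and NLRP2.

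The same block in the 8 libraries of days 3 to 6, a choice made after these counts had been seen, called 151 genes higher on D6 (0.996% of 15159 tested) and 107 lower (0.706%). All 258 changed in the same direction within both tables, 166 of them did not overlap between the days, and 119 had an unadjusted p under 0.05 in the fit without the block. A fit with the table as a block favours genes whose change is alike in both tables. The first of these counts is therefore not independent of the call, and the share over all genes is not given here. Over all genes of the first fit, 12% lay higher on D6 and 12.4% lower with no overlap. In the 4 libraries alone the block called 257 higher (1.76%) and 197 lower (1.35%), which included 237 of the 258. That fit holds no other day, so its spread comes mostly from what genes share, and its libraries are among the 8. With 1 of the 4 libraries of D4 and D6 left out, the blocked fit of days 3 to 6 called between 31 higher and 8 lower, without library B of D6, and 103 higher and 36 lower, without library A of D6. It called 73 and 26 without library A of D4 and 62 and 49 without library B of D4. Of the 258 genes 26 were called in all 4 of these fits. Among those whose fold change is given here they are ART4, ASNS, ASS1, CEBPG, CHAC1, ERFE, FADS2, LCP1, PHGDH, PSAT1, RHD, SLC1A4, SLC25A37, SLC4A1, SLC7A8, SOX6, SYBU and TRIB3, and every other call given here with its fold change was lost in at least 1 of the 4. Many of the 258 were called in none of these fits, and the fits also called genes outside the 258. In what follows a gene is said to have risen or fallen only where its adjusted p was under 0.05 in the blocked fit of days 3 to 6. Fold changes, standard errors (SE) and adjusted p-values are from that fit, the value before the SE is always the log2 fold change of D6 over D4 unless a difference of spans is named, and levels are CPM scaled by TMM factors. The p-values of that fit measure the spread left among its 8 libraries once the difference between the tables is taken out. They do not measure the full spread between the 2 libraries of a day. At an unadjusted p under 0.05 that fit held 1143 genes higher (7.54%) and 1370 lower (9.04%), against which the counts of the lists below stand.

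**Figure D1:**
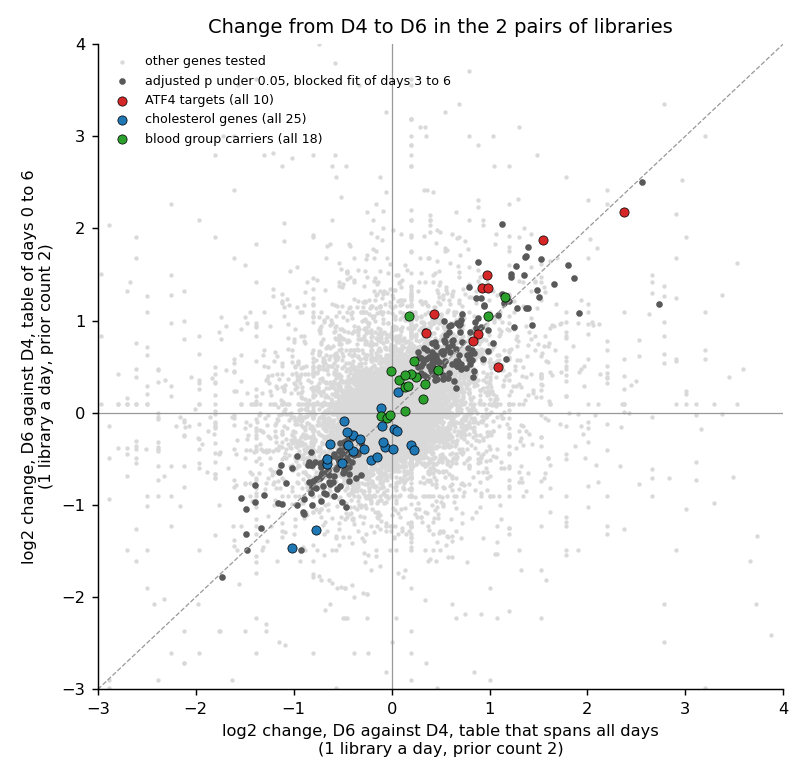
Log2 change from D4 to D6 within the table of all days (x axis, library A) against that within the table of days 0 to 6 (y axis, library B), 1 point a gene, with a prior count of 2 and 71 genes outside the axes. The 258 genes with an adjusted p under 0.05 in the blocked fit (dark) lie along the dashed line of equal change, a place that the call itself favours. The 10 ATF4 targets (red) lie above 0 on both axes.

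Most ATF4 target genes rose. Of 10 on the list 8 rose, all 10 had an unadjusted p under 0.05 and lay higher on D6, and their median log2 fold change was 1.02, against -0.0064 over all genes tested. In the fit without the block 9 of the 10 had an unadjusted p under 0.05. Library A and library B of D6 both lay above both libraries of D4 for 9 of the 10, the exception being DDIT3. The list was chosen with earlier results of these data known. With 1 library left out 6 to 8 of the 10 were called, and ASNS, CHAC1, PHGDH, PSAT1 and TRIB3 were called in each of the 4 fits.

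ASNS encodes asparagine synthetase and lies on chromosome 7 of hg38 (97851677 to 97928441). It was at 203 and 217 CPM on D4 and 375 and 391.7 CPM on D6. The days stood well apart and the libraries of each day close together, with a log2 fold change of 0.87 ± 0.070 SE, edgeR adjusted p = 0.000813. PHGDH, the first enzyme of serine synthesis, lies on chromosome 1 (119711934 to 119744218) and held 0.8998 and 1.83 CPM on D4 and 4.80 and 8.38 CPM on D6. It rose most on the list (2.30 ± 0.21 SE, edgeR adjusted p = 0.00208), and library B lay above library A on both days. PSAT1, the next enzyme of that pathway, was at 175 and 176 CPM on D4 and 310.4 and 300.3 CPM on D6 and also rose (0.81 ± 0.089 SE, edgeR adjusted p = 0.00316).

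TRIB3, a pseudokinase that is induced by ATF4 and binds AKT, was at 4.53 and 5.68 CPM on D4 and 13.3 and 20.9 CPM on D6 (1.72 ± 0.14 SE, edgeR adjusted p = 0.000816). CHAC1, which breaks down glutathione, was at 14.1 and 17.2 CPM on D4 and 27.9 and 44.1 CPM on D6 (1.17 ± 0.12 SE, edgeR adjusted p = 0.00266). Both libraries of D6 exceeded both of D4 for each of these genes. SESN2 and DDIT4, inhibitors of mTORC1 signalling, rose as well. SESN2 was at 10.1 and 10.7 CPM on D4 and 19.8 and 30.2 CPM on D6 (1.25 ± 0.14 SE, edgeR adjusted p = 0.00316). DDIT4 was at 222 and 198 CPM on D4 and 298 and 416 CPM on D6 (0.74 ± 0.14 SE, edgeR adjusted p = 0.0339), and its change was larger between the libraries B than between the libraries A. ATF3, a transcription factor of the stress response, was at 3.20 and 4.97 CPM on D4 and 6.10 and 12.7 CPM on D6 (1.16 ± 0.16 SE, edgeR adjusted p = 0.00894). DDIT3, which encodes the stress factor CHOP, held 3.63 and 6.01 CPM on D4 and 4.64 and 10.97 CPM on D6, so that library A of D6 fell below library B of D4 (log2 fold change 0.64 ± 0.18 SE, edgeR adjusted p = 0.121). SLC7A11, the cystine importer, was at 26.98 and 34.0 CPM on D4 and 57.3 and 48.0 CPM on D6 (0.82 ± 0.19 SE, edgeR adjusted p = 0.065). ATF4 itself, which is governed largely at translation, was at 419 and 521 CPM on D4 and 482 and 662 CPM on D6 (0.28 ± 0.072 SE, edgeR adjusted p = 0.0937), with the days overlapping. ATF4, like the genes of the next paragraphs that are on no list, was singled out after values had been seen.

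Promoters were searched for the C/EBP-ATF response element, the DNA element that ATF4 binds together with a C/EBP partner, here as the letters TGATGNAA on either strand of the 250 bases before and 50 after each RefSeq start (GRCh38.p14). It was found in 1270 of 35116 promoters (3.62%) and in 281 of the 10674 genes tested that had a promoter in the table (2.63%). Among the genes that rose it was found in 17 of the 122 with a promoter (13.9%), and among those that fell in 1 of 79 (1.27%). The 17 were AARS1, ART4, ASNS, ATF3, BCL6, CARS1, CEBPG, CHAC1, FAXDC2, FBLN2, GARS1, GRAP2, GYPE, LINC01133, MBNL2, SLC1A4 and SLC1A5. A match of letters is a description and not a bound site, and genes with several starts had more chances to match. For each gene shown with its bases, the promoter is that of the first RefSeq start listed that held a match. Which start these cells used was not tested. Of the 10 ATF4 targets 9 had a promoter in the table and 3 a match, ASNS, CHAC1 and ATF3. These 3 are shown with those of the transporter gene SLC1A4 and of CEBPG, whose product is a C/EBP partner of ATF4, since all 5 genes rose; capitals mark the element. The promoter of ASNS is chr7:97872359-97872658 (minus strand), of CHAC1 chr15:40953221-40953520, of ATF3 chr1:212565157-212565456, of SLC1A4 chr2:64989149-64989448 and of CEBPG chr19:33373863-33374162 (plus strand), each written 5′ to 3′.
ASNS: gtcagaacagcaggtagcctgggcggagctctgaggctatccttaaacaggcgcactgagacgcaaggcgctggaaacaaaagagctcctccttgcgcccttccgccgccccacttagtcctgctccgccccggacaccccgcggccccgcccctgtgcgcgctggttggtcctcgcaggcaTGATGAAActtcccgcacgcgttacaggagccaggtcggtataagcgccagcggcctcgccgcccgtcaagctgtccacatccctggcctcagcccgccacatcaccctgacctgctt
CHAC1: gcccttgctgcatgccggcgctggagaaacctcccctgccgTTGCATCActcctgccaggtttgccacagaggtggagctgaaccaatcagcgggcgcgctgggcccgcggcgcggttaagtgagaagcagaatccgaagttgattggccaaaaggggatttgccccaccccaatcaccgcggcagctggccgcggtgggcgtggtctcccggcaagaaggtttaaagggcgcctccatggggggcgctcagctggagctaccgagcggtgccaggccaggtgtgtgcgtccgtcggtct
ATF3: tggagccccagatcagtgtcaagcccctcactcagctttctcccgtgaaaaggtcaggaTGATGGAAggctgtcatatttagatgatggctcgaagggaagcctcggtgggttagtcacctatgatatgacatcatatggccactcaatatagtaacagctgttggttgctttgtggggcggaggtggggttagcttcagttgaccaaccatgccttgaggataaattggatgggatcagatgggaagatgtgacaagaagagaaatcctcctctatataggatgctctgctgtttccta
SLC1A4: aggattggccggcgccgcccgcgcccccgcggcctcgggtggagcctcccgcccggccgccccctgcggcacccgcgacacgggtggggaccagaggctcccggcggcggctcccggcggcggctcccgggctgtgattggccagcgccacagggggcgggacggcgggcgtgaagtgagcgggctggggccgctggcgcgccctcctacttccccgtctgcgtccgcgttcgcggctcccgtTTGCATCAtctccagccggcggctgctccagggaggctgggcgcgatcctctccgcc
CEBPG: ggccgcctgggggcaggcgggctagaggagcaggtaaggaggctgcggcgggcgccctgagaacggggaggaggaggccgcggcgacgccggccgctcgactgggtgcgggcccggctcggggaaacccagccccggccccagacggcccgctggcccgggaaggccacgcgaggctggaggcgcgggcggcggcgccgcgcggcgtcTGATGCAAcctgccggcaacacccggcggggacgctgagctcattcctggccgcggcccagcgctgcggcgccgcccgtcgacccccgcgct
The first base of the element lay 68 bases before the start of ASNS, 209 before that of CHAC1, 191 before that of ATF3, 7 before that of SLC1A4 and 42 before that of CEBPG. In CHAC1 and SLC1A4 it was read on the opposite strand.

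Other genes of amino acid metabolism were singled out among those called after their values had been seen, so they stand for no group. ASS1, argininosuccinate synthase of arginine synthesis (chromosome 9, 130444707 to 130501274) was at 1.04 and 0.861 CPM on D4 and 6.30 and 5.02 CPM on D6 (2.57 ± 0.19 SE, edgeR adjusted p = 0.000629). It was among the 9 genes called with the block over all 14 libraries, and was called with any 1 library left out. SLC1A4, a transporter of alanine, serine and cysteine, was at 2.25 and 6.63 CPM on D4 and 7.92 and 20.2 CPM on D6 (1.71 ± 0.13 SE, edgeR adjusted p = 0.000629). Its libraries A lay below its libraries B on each day, and the rise was seen within each table. GPT2, the mitochondrial alanine aminotransferase, was at 7.25 and 8.98 CPM on D4 and 15.8 and 21.97 CPM on D6 (1.22 ± 0.13 SE, edgeR adjusted p = 0.00304). CTH, which makes cysteine from cystathionine, was at 15.3 and 16.5 CPM on D4 and 24.8 and 32.1 CPM on D6 (0.83 ± 0.11 SE, edgeR adjusted p = 0.00858). MTHFD2, of mitochondrial one-carbon metabolism, was at 199.8 and 225 CPM on D4 and 287 and 289.9 CPM on D6 (0.45 ± 0.075 SE, edgeR adjusted p = 0.0203). Both D6 libraries of GPT2, CTH and MTHFD2 exceeded both D4 libraries.

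Among transporters of amino acids, SLC7A5, which carries large neutral amino acids, rose from 343 and 318 CPM on D4 to 456 and 502 CPM on D6 (0.54 ± 0.085 SE, edgeR adjusted p = 0.016). SLC6A9, the glycine transporter, was at 58.9 and 83.4 CPM on D4 and 90.1 and 162 CPM on D6 (0.79 ± 0.097 SE, edgeR adjusted p = 0.00599). Glycine is the amino acid from which heme is made. SLC1A5, the glutamine transporter, was at 456 and 502 CPM on D4 and 562 and 715 CPM on D6 (0.41 ± 0.073 SE, edgeR adjusted p = 0.0257). SLC7A8, another transporter of neutral amino acids, fell in the same libraries from 79.6 and 162 CPM on D4 to 44.4 and 96.4 CPM on D6 (-0.79 ± 0.072 SE, edgeR adjusted p = 0.00183), with library A below library B on both days and the days overlapping. Of the 20 cytosolic aminoacyl-tRNA synthetase genes, looked up as a family after values had been seen, 3 rose and none fell, and 9 had an unadjusted p under 0.05 and a higher level on D6 against 1 lower. GARS1, for glycine, was at 402 and 503 CPM on D4 and 531 and 694 CPM on D6 (0.44 ± 0.068 SE, edgeR adjusted p = 0.0156), CARS1, for cysteine, had a log2 fold change of 0.47 ± 0.074 SE, edgeR adjusted p = 0.0164 and AARS1, for alanine, of 0.34 ± 0.070 SE, edgeR adjusted p = 0.0448. None of the 3 was called in all of the fits with 1 library left out. The partner genes CEBPG and CEBPB rose as well, CEBPG from 35.7 and 50.5 CPM on D4 to 61.3 and 82.0 CPM on D6 (0.74 ± 0.080 SE, edgeR adjusted p = 0.00298) and CEBPB with the days overlapping (0.83 ± 0.11 SE, edgeR adjusted p = 0.00858).

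**Figure D2:**
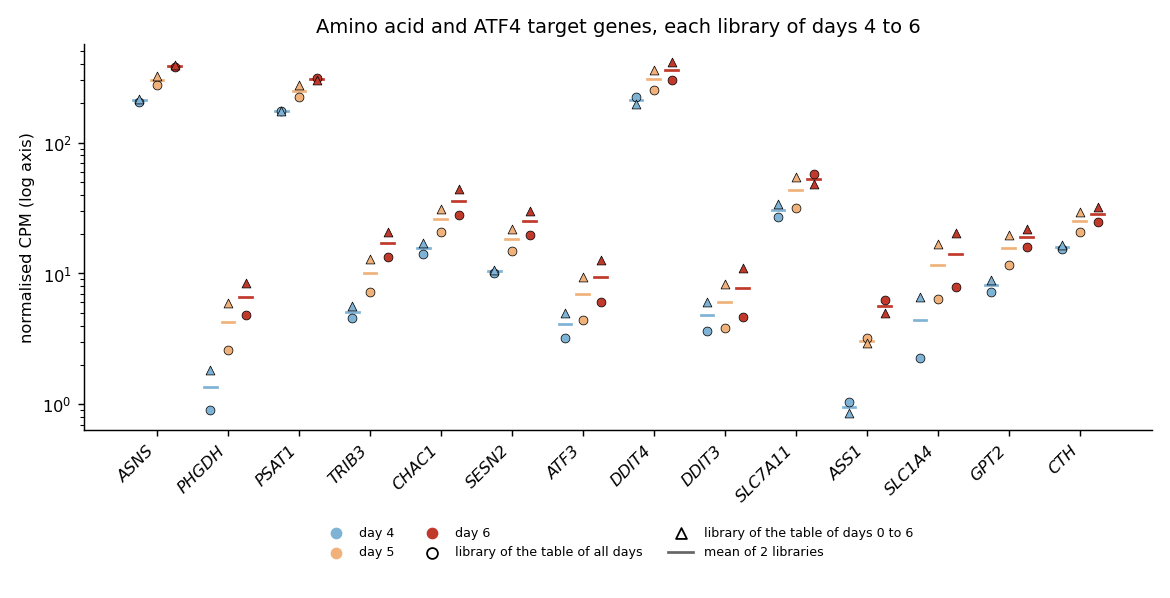
Normalised CPM (log axis) of the 10 ATF4 targets and of ASS1, SLC1A4, GPT2 and CTH in each library of days 4, 5 and 6; circles are library A, triangles library B, and bars the mean of 2 libraries. For 13 of the 14 genes both libraries of D6 lie above both of D4, the exception being DDIT3, and the mean of D5 lies between.

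Genes of cholesterol synthesis and uptake went the other way. Of 25 on the list 4 fell, none rose, and 16 had an unadjusted p under 0.05 with a lower level on D6 against 0 with a higher one. The median log2 fold change was -0.31. Both D6 libraries lay below both D4 libraries for 14 of the 25 and above them for 1. With 1 library left out 0 to 2 of the 25 were called, and in the 4 libraries alone 7 were.

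HMGCS1, which feeds HMG-CoA into the mevalonate pathway (chromosome 5, 43287470 to 43313477), was at 952 and 782 CPM on D4 and 557 and 323 CPM on D6. The lowest library of D4 stood above the highest of D6 (-1.03 ± 0.14 SE, edgeR adjusted p = 0.00849), and the fall was larger between the libraries B. DHCR7, which catalyses a late step to cholesterol, was at 79.4 and 55.0 CPM on D4 and 50.1 and 38.8 CPM on D6 (-0.57 ± 0.12 SE, edgeR adjusted p = 0.0495). FDPS and ACAT2, both lower on D6 in both tables, did not pass, with log2 fold changes of -0.31 ± 0.076 SE, edgeR adjusted p = 0.0834 and -0.34 ± 0.091 SE, edgeR adjusted p = 0.107.

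Of 12 genes of fatty acid synthesis, elongation and desaturation that could be tested, a family looked up after values had been seen, 5 fell and none rose. FASN, the fatty acid synthase, was at 550.1 and 277 CPM on D4 and 314 and 166 CPM on D6 (-0.77 ± 0.14 SE, edgeR adjusted p = 0.0275). Its libraries A of each day lay above the libraries B of the same day, and the days overlapped. SCD, the stearoyl-CoA desaturase, was at 729.9 and 529.8 CPM on D4 and 506 and 306 CPM on D6 (-0.66 ± 0.12 SE, edgeR adjusted p = 0.0238). FADS2, a desaturase of polyunsaturated fatty acids, was at 537 and 340.0 CPM on D4 and 329 and 216 CPM on D6 (-0.68 ± 0.086 SE, edgeR adjusted p = 0.00674), and it was the member called in all 4 fits with 1 library left out. ELOVL6, an elongase, fell from 156 and 166 CPM on D4 to 122 and 123 CPM on D6 (-0.39 ± 0.078 SE, edgeR adjusted p = 0.043). FABP5, a fatty acid carrier, and DBI, which binds acyl-CoA, fell as well. FABP5 was at 35.96 and 34.0 CPM on D4 and 20.3 and 18.6 CPM on D6 (-0.84 ± 0.12 SE, edgeR adjusted p = 0.0107) and DBI was at 16.1 and 28.2 CPM on D4 and 9.86 and 16.2 CPM on D6 (-0.75 ± 0.10 SE, edgeR adjusted p = 0.00858), with the days of DBI overlapping. SREBF1 and SREBF2, which encode the SREBPs, had log2 fold changes of -0.41 ± 0.096 SE, edgeR adjusted p = 0.0743 and 0.15 ± 0.076 SE, edgeR adjusted p = 0.367 and neither passed.

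Glycolytic genes fell in part. Of 27 genes for glycolysis and for the transport of gas and water, 3 fell and 2 rose, while 16 had an unadjusted p under 0.05 and a lower level on D6 against 5 with a higher one. ENO1, the enolase, was at 659 and 466 CPM on D4 and 449.9 and 332 CPM on D6 (-0.52 ± 0.091 SE, edgeR adjusted p = 0.0242). LDHA, lactate dehydrogenase A, was at 374 and 265 CPM on D4 and 282 and 195 CPM on D6 (-0.42 ± 0.079 SE, edgeR adjusted p = 0.0335). GPI, which makes fructose 6-phosphate, was at 200.4 and 115 CPM on D4 and 141 and 84.0 CPM on D6 (-0.48 ± 0.086 SE, edgeR adjusted p = 0.0278). Each was lower on D6 within both tables, but since library B lay below library A on each day the ranges of LDHA and GPI overlapped. The 2 that rose were BPGM, whose product 2,3-bisphosphoglycerate lowers the oxygen affinity of hemoglobin, and SLC2A1, the glucose transporter GLUT1. BPGM was at 31.5 and 50.4 CPM on D4 and 43.0 and 77.5 CPM on D6 (0.55 ± 0.11 SE, edgeR adjusted p = 0.0396), and SLC2A1 was at 227 and 288 CPM on D4 and 284 and 419 CPM on D6 (0.44 ± 0.077 SE, edgeR adjusted p = 0.0242). The days overlapped in BPGM and SLC2A1 too. With 1 library left out the number called lower was 0 to 2, and BPGM and SLC2A1 were called in 1 fit each.

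**Figure D3:**
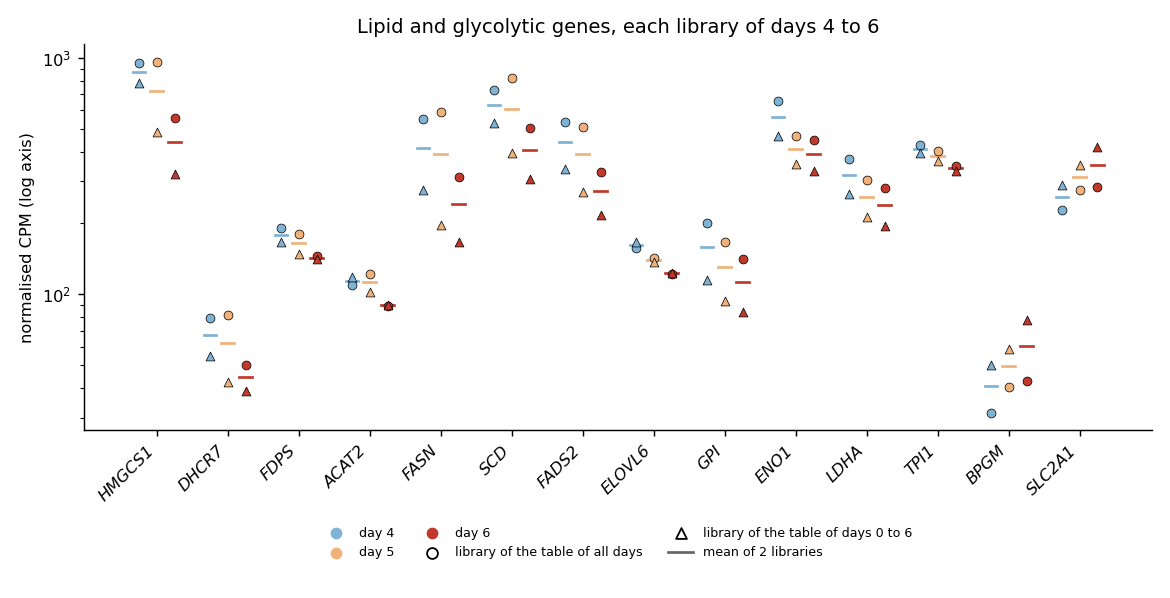
Normalised CPM (log axis) of genes for sterol, fatty acid and glucose metabolism in each library of days 4, 5 and 6; circles are library A, triangles library B, and bars the mean of 2 libraries. For FASN and GPI circles lie above triangles on each day and the days overlap, while the change from D4 to D6 runs the same way from circle to circle and from triangle to triangle in all 14 genes.

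Genes of ribosome biogenesis were lower on D6 by small amounts. Of 40 on the list 1 fell, 23 had an unadjusted p under 0.05 with a lower level against 0 with a higher one, and the median log2 fold change was -0.20. NOP16, a nucleolar protein of the large subunit's assembly, was the one that fell, from 72.4 and 57.6 CPM on D4 to 52.7 and 46.0 CPM on D6 (-0.39 ± 0.082 SE, edgeR adjusted p = 0.0494), and it was called in none of the fits with 1 library left out. NCL, nucleolin, was at 1869 and 1671 CPM on D4 and 1565 and 1337 CPM on D6 (-0.28 ± 0.068 SE, edgeR adjusted p = 0.0758). The 83 cytosolic ribosomal protein genes tested had a median log2 fold change of 0.007, and none rose or fell. Their summed level per length moved from 189650 and 184273 TPM on D4 to 182246 and 180165 TPM on D6.

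Among hemoglobin genes, the list of 10 globins had a median log2 fold change of 0.37. Of the 10, 2 rose, HBM and HBD, 7 had an unadjusted p under 0.05 with a higher level and 1 with a lower one. The summed globin level was 96502 and 100609 TPM on D4 and 114040 and 136747 TPM on D6. HBM, the mu globin, was at 53.7 and 52.6 CPM on D4 and 86.9 and 96.9 CPM on D6 (0.79 ± 0.15 SE, edgeR adjusted p = 0.0308), and HBD, the delta chain of hemoglobin A2, was at 525 and 669 CPM on D4 and 645 and 1012 CPM on D6 (0.45 ± 0.082 SE, edgeR adjusted p = 0.0275). HBB, the adult beta chain, did not pass with 20260.2 and 18073 CPM on D4 and 22734 and 25587 CPM on D6 (0.34 ± 0.078 SE, edgeR adjusted p = 0.0656). HBA2, an alpha chain gene nearly identical to HBA1 so that reads can be split between them, was at 4453 and 5549 CPM on D4 and 5454 and 9189 CPM on D6 (0.52 ± 0.12 SE, edgeR adjusted p = 0.0681). In each of these genes library B of D6 was the highest of the 4, and in HBD and HBA2 the days overlapped. With 1 library left out HBM was called in none of the fits and HBD in 1.

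Of 14 heme synthesis genes 3 rose and none fell. UROS, which makes uroporphyrinogen III, was at 86.4 and 107 CPM on D4 and 126 and 181 CPM on D6 (0.66 ± 0.083 SE, edgeR adjusted p = 0.00674). SLC25A37, the mitochondrial iron importer mitoferrin, was at 1214 and 1905 CPM on D4 and 1812 and 3131 CPM on D6 (0.65 ± 0.077 SE, edgeR adjusted p = 0.0043), and was called with any 1 library left out although its days overlapped. FAM210B, a mitochondrial protein of heme synthesis, rose in both tables (0.43 ± 0.087 SE, edgeR adjusted p = 0.043), with the days overlapping. ALAS2, the first enzyme of erythroid heme synthesis, was at 664 and 844 CPM on D4 and 804 and 1124 CPM on D6 (0.35 ± 0.080 SE, edgeR adjusted p = 0.0672). Among 15 iron genes 1 rose, ERFE, the hormone erythroferrone by which erythroblasts lower hepcidin. ERFE was at 76.4 and 110.2 CPM on D4 and 126 and 188 CPM on D6 (0.75 ± 0.073 SE, edgeR adjusted p = 0.00231) and was called in each fit with 1 library left out. TFRC, the transferrin receptor, stood at 6028 and 6580.0 CPM on D4 and 6946 and 6874 CPM on D6, a difference that did not pass.

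Of 15 membrane skeleton genes 2 rose. SLC4A1, the anion exchanger band 3 (chromosome 17, 44248390 to 44268161), was at 651 and 1189.6 CPM on D4 and 1497 and 2750.3 CPM on D6. It rose by the same amount in both tables (1.21 ± 0.12 SE, edgeR adjusted p = 0.00266), and library A lay below library B on each day. DMTN, dematin, rose with the days overlapping (0.48 ± 0.079 SE, edgeR adjusted p = 0.0194). Of 18 genes for blood group carriers 3 rose, none fell, and 11 had an unadjusted p under 0.05 with a higher level against 0 with a lower one. RHD was at 7.29 and 9.63 CPM on D4 and 16.4 and 23.1 CPM on D6 (1.22 ± 0.13 SE, edgeR adjusted p = 0.00266), and RHCE was at 6.19 and 8.78 CPM on D4 and 12.3 and 18.2 CPM on D6 (1.03 ± 0.16 SE, edgeR adjusted p = 0.0146). RHD and RHCE are near-identical copies, so the share of each is uncertain. GYPE, of the glycophorin family with its own near copies, rose as well (0.47 ± 0.093 SE, edgeR adjusted p = 0.0396). ART4, which carries the Dombrock blood group and is outside the list, was at 2.49 and 3.13 CPM on D4 and 6.502 and 10.2 CPM on D6 (1.56 ± 0.16 SE, edgeR adjusted p = 0.00266). RHD and ART4 were called with any 1 library left out.

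Of 18 erythroid transcription factors 4 rose and none fell. SOX6, a repressor of gamma globin genes, was at 13.4 and 21.8 CPM on D4 and 32.0 and 41.5 CPM on D6 (1.09 ± 0.12 SE, edgeR adjusted p = 0.00304). HEMGN, hemogen, had levels that overlapped between the days (0.59 ± 0.088 SE, edgeR adjusted p = 0.0131). FOXO3, which switches on antioxidant and autophagy genes in maturing erythroblasts, was at 149 and 203 CPM on D4 and 215 and 270.1 CPM on D6 (0.48 ± 0.084 SE, edgeR adjusted p = 0.0244). KLF13 was at 205 and 221 CPM on D4 and 274 and 313 CPM on D6 (0.47 ± 0.074 SE, edgeR adjusted p = 0.016). GATA1 and KLF1, the master regulators of erythroid genes, were at 223 and 218 CPM on D4 and 213 and 226 CPM on D6 and 509 and 518 CPM on D4 and 489 and 601 CPM on D6, and in both the days overlapped. Of 13 progenitor factors tested none rose or fell, and 3 had an unadjusted p under 0.05 with a lower level on D6. MYB was at 299 and 238 CPM on D4 and 261 and 175 CPM on D6 (-0.31 ± 0.083 SE, edgeR adjusted p = 0.105), and MYC was at 688 and 525 CPM on D4 and 595 and 466 CPM on D6.

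The receptor for SCF, KIT, was at 295 and 252 CPM on D4 and 309 and 187 CPM on D6. Library A of D6 was the highest of the 4 and library B of D6 the lowest, so the days could not be told apart at this spread. EPOR, the receptor for EPO, was at 185 and 177 CPM on D4 and 184 and 220.0 CPM on D6, again with the days overlapping. Of 21 genes of SCF and EPO signalling 2 rose and 1 fell. SH2B3, the adaptor LNK that restrains JAK2, was at 93.1 and 98.0 CPM on D4 and 124 and 139 CPM on D6 (0.46 ± 0.079 SE, edgeR adjusted p = 0.022). BCL2L1, the survival factor BCL-XL, rose from 87.7 and 109 CPM on D4 to 106 and 154 CPM on D6, with the days overlapping (0.39 ± 0.078 SE, edgeR adjusted p = 0.0416). LYN, a SRC family kinase downstream of KIT and EPOR, fell from 137 and 136 CPM on D4 to 105 and 99.0 CPM on D6 (-0.41 ± 0.074 SE, edgeR adjusted p = 0.0273). With 1 library left out BCL2L1 was called in 1 fit and SH2B3 and LYN in none.

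None of the 44 DNA replication genes and none of the 44 mitosis genes rose or fell, and 3 and 8 of them had an unadjusted p under 0.05, each with a higher level on D6. MKI67, the proliferation marker, was at 880.1 and 1032 CPM on D4 and 1079.8 and 1081 CPM on D6. Of 28 genes of cell cycle exit 1 rose, CCND3, the cyclin that sets how often erythroblasts divide. CCND3 was at 224 and 415 CPM on D4 and 326 and 612 CPM on D6, and rose within both tables although library A of D6 fell below library B of D4 (0.56 ± 0.074 SE, edgeR adjusted p = 0.00858). CDKN1B and CDKN2D, inhibitors of cyclin-dependent kinases, were at 53.3 and 85.9 CPM on D4 and 71.2 and 96.4 CPM on D6 and at 3.37 and 5.48 CPM on D4 and 3.90 and 9.11 CPM on D6.

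Among the ubiquitin enzymes of erythroid cells 1 of 31 rose, TRIM10, an E3 ligase of the tripartite motif family (chromosome 6, 30151939 to 30163216). TRIM10 was at 34.9 and 51.2 CPM on D4 and 77.3 and 117 CPM on D6 (1.17 ± 0.14 SE, edgeR adjusted p = 0.00406), with both libraries of D6 above both of D4. TRIM58, a related E3 ligase of late erythroblasts, was at 149 and 174 CPM on D4 and 170.4 and 180.3 CPM on D6, with the days standing close together. Of 32 autophagy genes 2 rose. ULK1, the kinase that starts autophagy, was at 22.6 and 25.4 CPM on D4 and 32.4 and 40.5 CPM on D6 (0.60 ± 0.11 SE, edgeR adjusted p = 0.0283). WIPI1, which marks early autophagosomes, was at 23.8 and 24.7 CPM on D4 and 31.2 and 37.6 CPM on D6 (0.51 ± 0.11 SE, edgeR adjusted p = 0.0486). BNIP3L, the mitophagy receptor NIX, was at 402 and 653 CPM on D4 and 395 and 599 CPM on D6, with the days overlapping. Of 22 survival genes BCL2L1 and BMF rose, the second a BH3-only protein at 0.466 and 1.72 CPM on D4 and 1.26 and 3.81 CPM on D6 (1.26 ± 0.23 SE, edgeR adjusted p = 0.0272). The days overlapped in BMF as well.

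The genes that follow, which no other list holds, were singled out among those that fell after their values had been seen. LCP1, L-plastin, which bundles actin in leukocytes (chromosome 13, 46125923 to 46182177), was at 154 and 118 CPM on D4 and 83.1 and 61.6 CPM on D6. Both libraries of D6 lay below both of D4, with the smallest adjusted p of the genes that fell (-0.91 ± 0.071 SE, edgeR adjusted p = 0.000813), and the call held with any 1 library left out. ANXA1, annexin A1, was at 29.96 and 14.1 CPM on D4 and 13.8 and 7.06 CPM on D6 (-1.06 ± 0.13 SE, edgeR adjusted p = 0.00605). Of 8 annexin genes tested, a family looked up after values had been seen, 4 fell and none rose, the others being ANXA2 (-0.57 ± 0.097 SE, edgeR adjusted p = 0.022), ANXA4 (-0.48 ± 0.098 SE, edgeR adjusted p = 0.043) and ANXA6 (-0.99 ± 0.16 SE, edgeR adjusted p = 0.0167). LGALS1, galectin-1, was at 8.35 and 8.40 CPM on D4 and 3.16 and 4.85 CPM on D6 (-1.10 ± 0.18 SE, edgeR adjusted p = 0.0178). DOCK2 and DOCK10, which activate small GTPases in leukocytes, fell from low levels. DOCK2 was at 8.87 and 5.62 CPM on D4 and 4.17 and 3.31 CPM on D6 (-0.92 ± 0.14 SE, edgeR adjusted p = 0.0129) and DOCK10 was at 1.37 and 1.18 CPM on D4 and 0.462 and 0.452 CPM on D6 (-1.47 ± 0.27 SE, edgeR adjusted p = 0.0309). TMSB10, a thymosin that binds actin, and ARPC1B, of the Arp2/3 complex, fell as well (-0.60 ± 0.10 SE, edgeR adjusted p = 0.022 and -0.52 ± 0.085 SE, edgeR adjusted p = 0.0184). CSF1, the growth factor of macrophages, fell from 10.1 and 5.82 CPM on D4 to 4.53 and 2.92 CPM on D6 (-1.08 ± 0.21 SE, edgeR adjusted p = 0.0364), and LITAF from 6.70 and 6.75 CPM on D4 to 2.70 and 3.63 CPM on D6 (-1.08 ± 0.16 SE, edgeR adjusted p = 0.0107).

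Of the lists for other cell types, that of mast cells and basophils had 2 genes of 9 tested that fell and none that rose. They were SIGLEC6 at 8.18 and 4.06 CPM on D4 and 3.66 and 2.58 CPM on D6 (-0.92 ± 0.19 SE, edgeR adjusted p = 0.046) and ENPP3 at 35.9 and 67.5 CPM on D4 and 25.6 and 43.9 CPM on D6 (-0.55 ± 0.10 SE, edgeR adjusted p = 0.0292). Library B of ENPP3 lay above library A on each day, and its days overlapped. The summed level of that list was 321 and 504 TPM on D4 and 210 and 349 TPM on D6. None of 8 megakaryocyte, 5 myeloid and 2 lymphoid genes tested rose or fell. Their summed levels were 12.3 and 41.2 TPM on D4 and 11.4 and 28.9 TPM on D6 for megakaryocytes, 47.7 and 41.7 TPM against 51.8 and 48.0 TPM for myeloid cells, and 1.27 and 0.908 TPM against 0.371 and 0.569 TPM for lymphoid cells. The part of these levels in the genes that fell was not tested.

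The remaining lists held few calls. Of 23 integrin and adhesion genes ITGA5, the alpha chain of the fibronectin receptor, rose from 13.1 and 13.9 CPM on D4 to 18.6 and 22.1 CPM on D6 (0.59 ± 0.11 SE, edgeR adjusted p = 0.0303) and CD63 fell (-0.43 ± 0.090 SE, edgeR adjusted p = 0.0496). ITGA4 was at 536 and 561 CPM on D4 and 592 and 527 CPM on D6 and CD36 was at 937 and 1288 CPM on D4 and 1232 and 1441 CPM on D6. Of 13 metallothionein and zinc genes SLC30A10 rose (1.53 ± 0.16 SE, edgeR adjusted p = 0.00298) and SLC39A14 fell (-0.54 ± 0.099 SE, edgeR adjusted p = 0.0309), both transporters of metal ions. Of 21 interferon response genes ISG20 rose from 3.36 and 5.12 CPM on D4 to 6.35 and 12.1 CPM on D6 (1.10 ± 0.17 SE, edgeR adjusted p = 0.0131), RSAD2 rose (0.49 ± 0.10 SE, edgeR adjusted p = 0.0491) and IFITM2 fell (-0.65 ± 0.14 SE, edgeR adjusted p = 0.0496), with the days overlapping in the last 2. GCLM, of glutathione synthesis, was the 1 of 27 antioxidant genes that rose (0.47 ± 0.095 SE, edgeR adjusted p = 0.043), DNAJB2 the 1 of 31 chaperones (0.68 ± 0.11 SE, edgeR adjusted p = 0.0159), and ATF3 the 1 of 19 stress and immediate early genes. TXNIP, which restrains glucose uptake, and VEGFA rose outside the lists (0.82 ± 0.12 SE, edgeR adjusted p = 0.0129 and 0.61 ± 0.12 SE, edgeR adjusted p = 0.0365). SYBU, which links cargo to kinesin, was at 4.82 and 9.59 CPM on D4 and 17.7 and 26.4 CPM on D6 and had the smallest unadjusted p of all genes in that fit (1.66 ± 0.12 SE, edgeR adjusted p = 0.000629). A few symbols among those called join neighbouring genes, such as CZ1P-ASNS, or have near-identical copies, such as NUDT4, NUDT4B and NUDT4P2, and their reads cannot be assigned with certainty.

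The day between and the days on either side were then read for the 258 genes, with CPM scaled over all 20 libraries. The mean of D5 lay between those of D4 and D6 for 146 of the 151 genes that rose (96.7%) and for 101 of the 107 that fell (94.4%), against 48.8% of all genes that were higher on D6 and 54.3% of those that were lower. Since D3 and D5 set the spread in the fit, this share is not independent of the call. No gene of 15159 departed from the midpoint of D4 and D6 on D5 at an adjusted p under 0.05, with 346 (2.28%) at an unadjusted one, and with 1 library left out there were 0 to 18. Day 7 was in no fit that chose the genes, but D5, with which it is compared here, was. SCF was taken out of the medium on day 6, between these 2 days. In mean CPM all 151 genes that rose were higher on day 7 than on day 5 and 106 of the 107 that fell were lower, against 71.7% and 74.1% of all genes with the same direction from D4 to D6. The libraries A alone, whose ribosomal RNA share on day 7 was the lower one, gave 150 and 106. In mean TPM the numbers were 143 and 106, against 37.6% and 90.8% of all genes. From day 1 to day 3, 132 of the 151 (87.4%) and 93 of the 107 (86.9%) had moved the same way, against 62.1% and 64.4%.

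**Figure D4:**
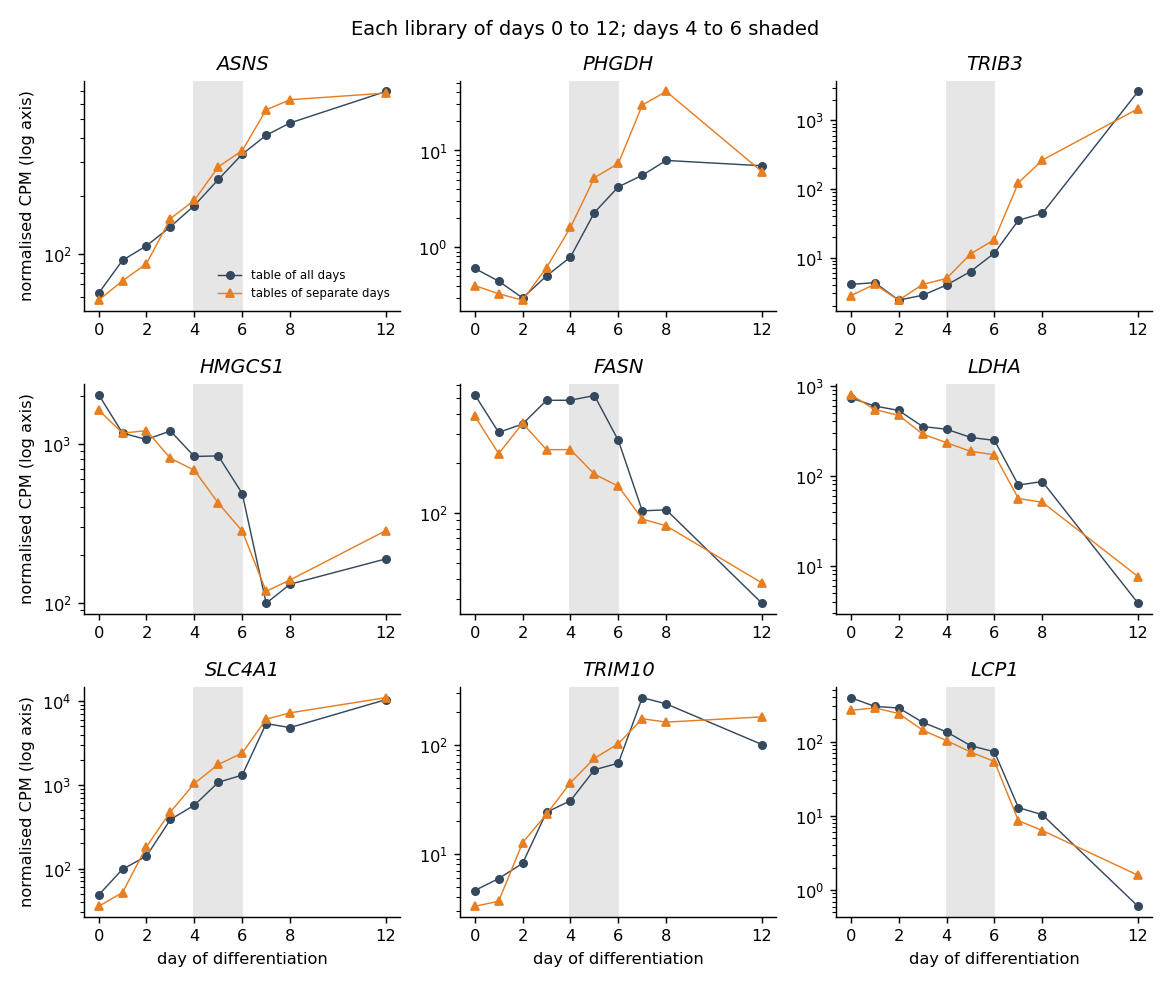
Normalised CPM (log axis, scaled over 20 libraries) of 9 genes on each day from day 0 to day 12, with D4 to D6 shaded; dark circles join the libraries of the table of all days and orange triangles those of the tables of separate days. In CPM ASNS and SLC4A1 are highest on day 12, whereas in TPM ASNS is highest on day 8. In TPM SLC4A1 is highest on day 7 in the table of all days and on day 8 in the tables of separate days. LDHA and LCP1 are lowest on day 12 on both scales, and PHGDH and TRIB3 stay low until day 3.

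The genes differed in when their change set in. CPM in this paragraph is scaled over all 20 libraries, so values of D4 and D6 differ from those given earlier. ASNS was at 92.9 and 72.8 CPM on day 1, 178 and 189.7 CPM on D4, 329 and 343 CPM on D6 and 693 and 679.7 CPM on day 12. Per length and per library total it was at 307 ± 16.4 TPM (SD, n = 2) on D6, 377 ± 23.6 TPM on day 8 and 176 ± 31.7 TPM on day 12, so that after day 8 the direction depends on the scale. Globin genes took 33.7% and 28.2% of the counts on day 12, a share that TPM keeps and TMM scaling adjusts for. PHGDH was still at 0.503 and 0.614 CPM on day 3, reached 4.21 and 7.34 CPM on D6, and on day 8 stood at 7.89 and 40.8 CPM in libraries A and B. The libraries B of days 7 and 8 held 17.6% and 16.8% ribosomal RNA, against 2.17% and 1.88% in the libraries A, and its part in such differences was not tested. TRIB3 was at 2.83 and 4.06 CPM on day 3, 11.6 and 18.3 CPM on D6, 44.2 and 264 CPM on day 8 and 2642 and 1482 CPM on day 12. SLC4A1 was at 386 and 475 CPM on day 3, 1311 and 2407 CPM on D6 and 5413 and 6107 CPM on day 7. HMGCS1 was at 836 and 684 CPM on D4, 843 and 424 CPM on D5 and 488 and 283 CPM on D6. On day 7 it was at 99.0 and 118 CPM. Its library A was thus no lower on D5 than on D4, which also held for DHCR7, FASN and SCD but not for FADS2. LCP1 was at 182 and 143 CPM on day 3, 72.8 and 53.9 CPM on D6 and 12.9 and 8.62 CPM on day 7. KIT held 259 and 221 CPM on D4, 271 and 163 CPM on D6 and 108 and 45.2 CPM on day 7.

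The change from D4 to D6 was tested against that from day 1 to day 3, a span of the same length in other libraries. Without the block 3 of 15890 genes differed between the spans (0.0189%), PER1, ELMO1 and IL2RB, and none of these 3 passed between D4 and D6. With the block over the 14 libraries 109 genes differed upward (0.686%) and 98 downward (0.617%), and 23 of them were among the 258. TRIB3 differed upward by 2.03 ± 0.39 SE on the log2 scale, edgeR adjusted p = 0.0349, and was lower on day 3 than on day 1. In the cholesterol list 6 of 25 genes differed downward and none upward, ACAT2, DHCR7, FDPS, IDI1, LSS and MVD, with ACAT2 at -1.11 ± 0.15 SE on the log2 scale, edgeR adjusted p = 0.00724. DHCR7 differed by -1.23 ± 0.25 SE on the log2 scale, edgeR adjusted p = 0.0436. FDPS differed by -0.68 ± 0.13 SE on the log2 scale, edgeR adjusted p = 0.0358, and these 3 were higher on day 3 than on day 1 and lower on D6 than on D4. BCL2L1 differed upward by 0.86 ± 0.11 SE on the log2 scale, edgeR adjusted p = 0.00684, and ITGA5 by 1.40 ± 0.28 SE on the log2 scale, edgeR adjusted p = 0.0385. Each of these differences was larger than the gene's rise from D4 to D6, so part of it was a fall from day 1 to day 3. BCL2L1 was at 97.5 and 138 CPM on day 1 and 72.2 and 95.6 CPM on day 3, scaled over 20 libraries. In the mast cell and basophil list 4 genes differed upward, among them SIGLEC6 by 2.07 ± 0.37 SE on the log2 scale, edgeR adjusted p = 0.0276. ENPP3 differed by 1.26 ± 0.22 SE on the log2 scale, edgeR adjusted p = 0.0263. Both fell more from day 1 to day 3 than from D4 to D6. For ASNS the difference between the spans was 0.043 ± 0.19 SE on the log2 scale, edgeR adjusted p = 0.966.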

How the data were processed

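RNA of HUDEP-2 cells was sequenced on 10 days of differentiation, 20 libraries in all. Per the submitters' processing notes, the reads were trimmed with Trimmomatic 0.38, aligned to hg38 with HISAT2 2.1.0 and counted with StringTie 2.1.3b. The authors deposited read counts and TPM for 170322 RefSeq transcripts in 4 tables. Counts and TPM were summed here by gene symbol to 46425 symbols. The 23 other columns of values, FPKM and a repeat of day 0, were not used.

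Counts as deposited were tested with edgeR 4.0.16 in R 4.3.3 (TMM scaling, filterByExpr, quasi-likelihood test, Benjamini-Hochberg adjustment), first over the 14 libraries of days 0 to 6 with no block. Libraries were grouped by the day in their labels. Columns carry no replicate number, so the table is all that joins libraries of different days. The differences between libraries A and B, taken over genes, correlated between days at 0.375 to 0.579, above 0.1 for all pairs of days, and the second principal component (25.4% of variance) separated the tables. The block of the table was therefore also fitted, as planned over days 0 to 6, and over days 3 to 6 and over D4 and D6 alone after the first results had been seen. Fold changes are the log2 values that edgeR reported. Each SE is the size of that value divided by the square root of the F statistic of its test. DESeq2 1.42.0 on counts and limma 3.58.1 on log2(TPM + 1) and log2(TPM + 0.1) were alternatives, with other scalings, filters and each library left out. The steps were tested on simulated data.

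Genes to be named were the 12 largest changes in each direction with an adjusted p under 0.05, a mean of at least 50 counts and no overlap, of which the first fit gave none, up to 4 genes with the smallest p in each list, and a fixed set of erythroid genes. Genes outside this rule were chosen after their values were seen. The members and lists were chosen with earlier results of these data known. Depth was 55079862 to 66857750 counts in the 4 libraries of D4 and D6. A few genes of the lists are counted but not reported by name here.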

Additional observations from a re-analysis of the deposited data

Results flagged for a closer look

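For 3 genes the change from D4 to D6 differed from that of day 1 to day 3 in the edgeR fit of 14 libraries without the block, and all 3 differed through days 1 to 3. Their CPM is scaled here over all 20 libraries, not over the 14 of the fit, so it is not on the scale of the levels given for D4 and D6 above. PER1, a repressor of the circadian clock and a target of the glucocorticoid receptor, was at 157 and 145.5 CPM on day 1 and at 17.4 and 13.7 CPM on day 3, then at 19.1 and 13.9 CPM on D4 and 14.9 and 14.1 CPM on D6. Its difference between the spans was 3.09 on the log2 scale (edgeR adjusted p = 0.00508). ELMO1, which acts with DOCK proteins on RAC, was at 88.6 and 108.9 CPM on day 1, 24.7 and 24.2 CPM on day 3, 18.4 and 16.6 CPM on D4 and 17.0 and 14.5 CPM on D6, a difference of 1.85 (edgeR adjusted p = 0.0106). IL2RB, the beta chain of the interleukin-2 receptor, had 67 and 98 counts on day 1, 0 in both libraries of day 3, 6 and 10 on D4 and 8 and 6 on D6. Its fitted difference of 9.29 (edgeR adjusted p = 0.0285) rests on the counts of 0 and depends on the prior count, so it is no bound on the size.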

How the results depend on the processing

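The number of genes called depended on how the deposited table was treated. Without the block no gene was called in either direction, and this held with upper-quartile scaling, with TMM without globin genes or without ribosomal, small non-coding RNA and histone genes, with no filter, with at least 10 counts in every library, with the 4 libraries alone, with all 20 libraries and with limma on log2(TPM + 0.1). DESeq2 called 12 higher and 10 lower, the exact test 5 and 1, and limma on log2(TPM + 1) 1 and 0. With the table as a block the counts were 5 and 4 over days 0 to 6 and 151 and 107 over days 3 to 6. In the 4 libraries they were 257 and 197, and 141 and 89 with DESeq2. In these 4 libraries the block gave 325 and 265 with upper-quartile scaling, 256 and 193 without globin genes, 317 and 280 without ribosomal, small non-coding RNA and histone genes, and 329 and 266 with at least 10 counts. Leaving out 1 library gave 0 to 1 higher and 0 lower without the block, and 31 to 103 higher and 8 to 49 lower with it over days 3 to 6. Genes that differed between the spans numbered 3 without the block, 207 with it, 125 with DESeq2, 1 with all 20 libraries, 6 and 5 with limma at pseudocounts of 1 and 0.1, and 1 to 4 with 1 library left out. No gene departed from the midpoint on D5 in any planned setting, and 0 to 18 did with the block and 1 library left out.

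Of 110 named genes 104 kept their direction in every setting. With 1 library left out and without the block, the log2 fold change ran from -0.058 to 1.19 for DDIT3, from -0.026 to 0.89 for DMTN, from -0.073 to 0.92 for FAM210B and from -0.088 to 1.31 for HEMGN, each time lowest without library B of D6. That of RSAD2 ran from -0.46, without library B of D6, to 1.38 and was -0.034 without library A of D4, and that of IFITM2 ran from -1.51 to 0.12, the latter without library B of D4. The cause was not tested. With 2 libraries a day, the blocked fits treat the difference between tables as the same on each day, and the days next to D4 and D6 set their spread.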
